A study of Rattus norvegicus with 14 samples.

Results

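The genes described here are the collagens and laminins of the rat pineal gland and retina, the chains of the extracellular matrix and the basement membrane. They were chosen by gene symbol alone: 32 of the 16472 genes in the deposited table had a symbol made of Col, a number, a and a number, or of Lama, Lamb or Lamc and a number. Of these, 31 coded for chains (24 collagen chains and 7 laminin chains), each with 1 transcript. The remaining gene, Col4a3bp, codes for a ceramide transporter and matched by its symbol only. A further 24 chain genes of a current RefSeq gene table, among them Col4a2, Col6a1, Lama2, Lama4 and Lamb1, were not analysed here.

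Sprague-Dawley rats aged 6 to 8 weeks lived under a daily cycle of 14 h light and 10 h dark, and zeitgeber time (ZT) counts the hours after lights on. Pineal glands and retinas were taken in the light at ZT1, ZT7 and ZT13, and in darkness at ZT15, ZT19 and ZT23, with 10 animals pooled for each library and 1 library per tissue and time. A mixed tissue library was made at ZT7 and another at ZT19, each from 3 rats, by combining equal amounts of RNA of 15 tissues that ranged from brain regions and pituitary to heart, liver, lung, kidney, muscle, intestine and adrenal gland. The retina was among these 15 tissues and the pineal gland was not. No genotype or drug treatment distinguished the groups. The series was designed to find transcripts that cycle over the day and those that the pineal gland is rich in.

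Collagen chains assemble into helical trimers that are secreted and then form fibrils, sheets or filaments. Laminins are heterotrimers of an alpha, a beta and a gamma chain, and with collagen IV they build the basement membranes around vessels, beneath epithelia and at the inner surface of the retina. Type I and type III collagens are the fibrils of connective tissue such as the meninges and the capsule and septa of the pineal gland, while type II, IX, XI and V collagens form the fine fibrils of cartilage and of the vitreous body next to the retina. The pineal gland makes melatonin at night under the control of noradrenaline and cyclic AMP, and many of its transcripts follow that daily signal.

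The promoters of the 3 chains with the clearest daily pattern in the pineal gland (Lamb3, Col8a1 and Col23a1, described further on) are printed first so that their sequence can be read beside their values. They are the 250 bases before the annotated start of each gene in RefSeq on the GRCr8 assembly, 5′ to 3′ on the strand of the gene. That assembly differs from the rn4 build of the expression table. Capitals mark the CCAAT box (CCAAT), the GC box (GGGCGG, which reads CCGCCC on the other strand) and the full cyclic AMP response element (TGACGTCA, a palindrome that contains the short form TGACG on each strand). The Lamb3 promoter lies at chr13:107362303-107362552 on the plus strand, that of Col8a1 at chr11:56246532-56246781 on the plus strand, and that of Col23a1 at chr10:36050077-36050326 on the plus strand.
Lamb3: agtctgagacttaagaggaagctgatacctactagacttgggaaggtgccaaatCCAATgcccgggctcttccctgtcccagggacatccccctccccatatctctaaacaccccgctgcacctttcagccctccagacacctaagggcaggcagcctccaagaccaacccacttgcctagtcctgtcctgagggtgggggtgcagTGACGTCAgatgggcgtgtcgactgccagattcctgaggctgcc
Col8a1: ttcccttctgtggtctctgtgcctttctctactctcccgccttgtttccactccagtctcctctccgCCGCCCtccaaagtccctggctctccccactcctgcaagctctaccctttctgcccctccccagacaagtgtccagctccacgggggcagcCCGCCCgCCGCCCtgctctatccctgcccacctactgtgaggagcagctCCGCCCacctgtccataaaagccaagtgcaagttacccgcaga
Col23a1: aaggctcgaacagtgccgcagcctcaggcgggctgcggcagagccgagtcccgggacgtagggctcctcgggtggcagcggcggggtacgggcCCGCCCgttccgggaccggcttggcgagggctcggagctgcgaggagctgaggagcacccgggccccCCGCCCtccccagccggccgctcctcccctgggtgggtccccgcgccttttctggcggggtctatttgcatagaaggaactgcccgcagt

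Among the 24 chains whose promoter was in the RefSeq table, Lamb3 was the only one with the full TGACGTCA motif, whose first base lay at position -44 from the start. Both strands were searched, and 1.59% of all 33469 promoters of this length held that motif. The short form TGACG occurred in 3 of the 24 chain promoters and in 18.2% of all promoters. The GC box occurred in 14 of the 24 and in 30.5% of all promoters, with 4 copies before Col8a1 and 2 before Col23a1. These counts were not adjusted for base content. G and C made up 62% of the window before Col8a1 and 73.2% before Col23a1, against a median of 51.2% over all promoters. Of the 24 chain promoters only those of Col17a1, Col5a2, Col9a1 and Lama1 lay below that median (44.8% to 47.2%). The CCAAT box was found in 5 of the 24 and in 34% of all promoters, and a TATA motif (TATAAA) in 3 of the 24 and in 12.9%. The photoreceptor factor core TAATCC occurred in 0 of the 24 (6.34% of all promoters), and so did the E-box CACGTG (5.59%). A match is a run of letters and does not show that a factor binds there, and a missing match concerns this window only.

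Col4a3 and Col4a4, which encode partner chains of one collagen IV network, are transcribed away from each other from a common region of chromosome 9. Their annotated starts in GRCr8 lay 413 bases apart, and in rn4 the transcribed spans of Col4a4 (chr9:81866835-81910088) and Col4a3 (chr9:81910656-82036998) were separated by 567 bases. The 250 bases before Col4a3 and the 250 bases before Col4a4 shared 88 bases at chr9:91323740-91323827 of GRCr8, printed here on the strand of Col4a3 because both genes are described side by side.
Col4a3 and Col4a4 shared bases: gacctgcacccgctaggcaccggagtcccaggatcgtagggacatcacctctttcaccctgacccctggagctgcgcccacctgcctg

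Values are FPKM (a fragment count scaled to the transcript's length and to the library's total), a scale per length on which levels of different chains can be compared. The sum over all genes ranged from 152281 to 212634 FPKM per library, and 8852 to 11399 genes reached 1 FPKM. Read totals were not given, and a single fragment per kb of transcript was estimated to be worth 0.0216 to 0.0527 FPKM, from 12 to 40 olfactory receptor transcripts per library. The tissue labels matched most of their defining genes. Of a list that defines the pineal gland, 5 of 6 genes tested were higher there than in the retina and 0 were lower (36.9% and 32.0% of all genes). Tph1 of that list, the first enzyme of serotonin synthesis, lay at 2968 to 3848 FPKM in the pineal libraries. All 8 genes tested of a list that defines retinal cells were lower in the pineal gland than in the retina. Several libraries stood apart before any collagen was considered. The pineal ZT13 library was the highest pineal library for 10 of 12 genes of a fibroblast and meninges list. The pineal ZT15 library held 3566 FPKM of Ttr, a choroid plexus and pigment epithelium gene, against 664 to 1152 FPKM in the others. The retinal ZT7 library had the largest sum over all genes of the retinal libraries (179277 FPKM, against 152281 to 161184 FPKM). The retinal ZT19 library, and less so ZT1, was rich in lens genes (541 and 208 FPKM of the lens crystallin Crygc, against 21.3 to 81.3 FPKM in the other retinal libraries). Crystallins are a multigene family, so single members are uncertain. In RNA from whole tissue, fewer cells of a type and less RNA per cell cannot be told apart.

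Pineal gland and retina expressed different sets of chains. The 31 chains together summed to 343 to 550 FPKM in the pineal libraries, which was 0.194% to 0.314% of all FPKM, and to 204 to 281 FPKM (0.131% to 0.184%) in the retinal libraries, so the groups did not overlap. Without Col8a1 the sums were 248 to 374 FPKM in the pineal gland and 203 to 279 FPKM in the retina, and then they overlapped. The mixed tissue libraries summed to 545 FPKM at ZT7 and 442 FPKM at ZT19. At least 1 FPKM in at least 2 libraries was reached by 23 of 31 chains in the pineal gland, by 24 in the retina and by 27 in the mixed tissue.

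In the pineal gland the most abundant chain was Col8a1, a short network-forming collagen known from vessel walls and the Descemet membrane of the cornea. It reached 143 ± 51.3 FPKM (mean ± SD, n = 6), which ranked 132 among all genes, and it made up 22.4% to 46.2% of the FPKM of all chains. Col3a1 (65.4 ± 12.9), Col1a2 (53.1 ± 15.4), Col1a1 (39.1 ± 11.1), Col23a1 (31.3 ± 8.77), Col6a2 (18.1 ± 3.70), Lamc1 (16.7 ± 3.15) and Col4a1 (13.2 ± 3.64 FPKM, each over 6 libraries) followed, and these 8 chains were the only ones with a pineal mean of 10 FPKM or more. Each chain in this order overlapped with the next in its range over libraries.

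In the retina the most abundant chain was Col5a3, a chain of type V collagen, at 47.1 ± 2.81 FPKM (n = 6). It was followed by Col4a1 (45.7 ± 9.19), Col23a1 (30.8 ± 0.948), Col9a1 (23.6 ± 4.62), Col2a1 (16.2 ± 2.51), Col18a1 (12.5 ± 1.94), Col11a2 (9.76 ± 1.70) and Col9a2 (9.19 ± 1.87 FPKM). The ranges of Col5a3 and Col4a1 overlapped, and so did each later neighbour in this order except Col23a1 and Col9a1, whose ranges of 29.0 to 31.6 and 15.1 to 28.8 FPKM did not meet. A group of 6 chains of cartilage and vitreous type fibrils (Col2a1, Col9a1, Col9a2, Col11a2, Col5a3 and Col27a1) took 44.7% to 51.2% of the chain FPKM in the retina, 2.47% to 3.55% in the pineal gland and 6.49% to 6.79% in mixed tissue. Of the type V chains only Col5a3 was counted in this group. Col5a1 and Col5a2, both higher in the pineal gland than in the retina, were left out. Without Col5a3 the shares were 25.2% to 29.5% in the retina, 0.581% to 0.831% in the pineal gland and 4.52% to 5.21% in mixed tissue. Col1a1, Col1a2 and Col3a1 together took 0.882% to 1.71% in the retina, 29.2% to 42.1% in the pineal gland and 55.4% to 57.1% in mixed tissue. In mixed tissue Col3a1 led with 162 FPKM at ZT7 and 135 FPKM at ZT19, ahead of Col1a2 (72.4 and 59.3), Col1a1 (76.4 and 50.4), Col4a1 (54.6 and 43.6), Col6a2 (30.5 and 27.3), Lamc1 (17.1 and 19.4), Col18a1 (16.4 and 13.8) and Col5a2 (16.7 and 12.5 FPKM).

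**Figure D1:**
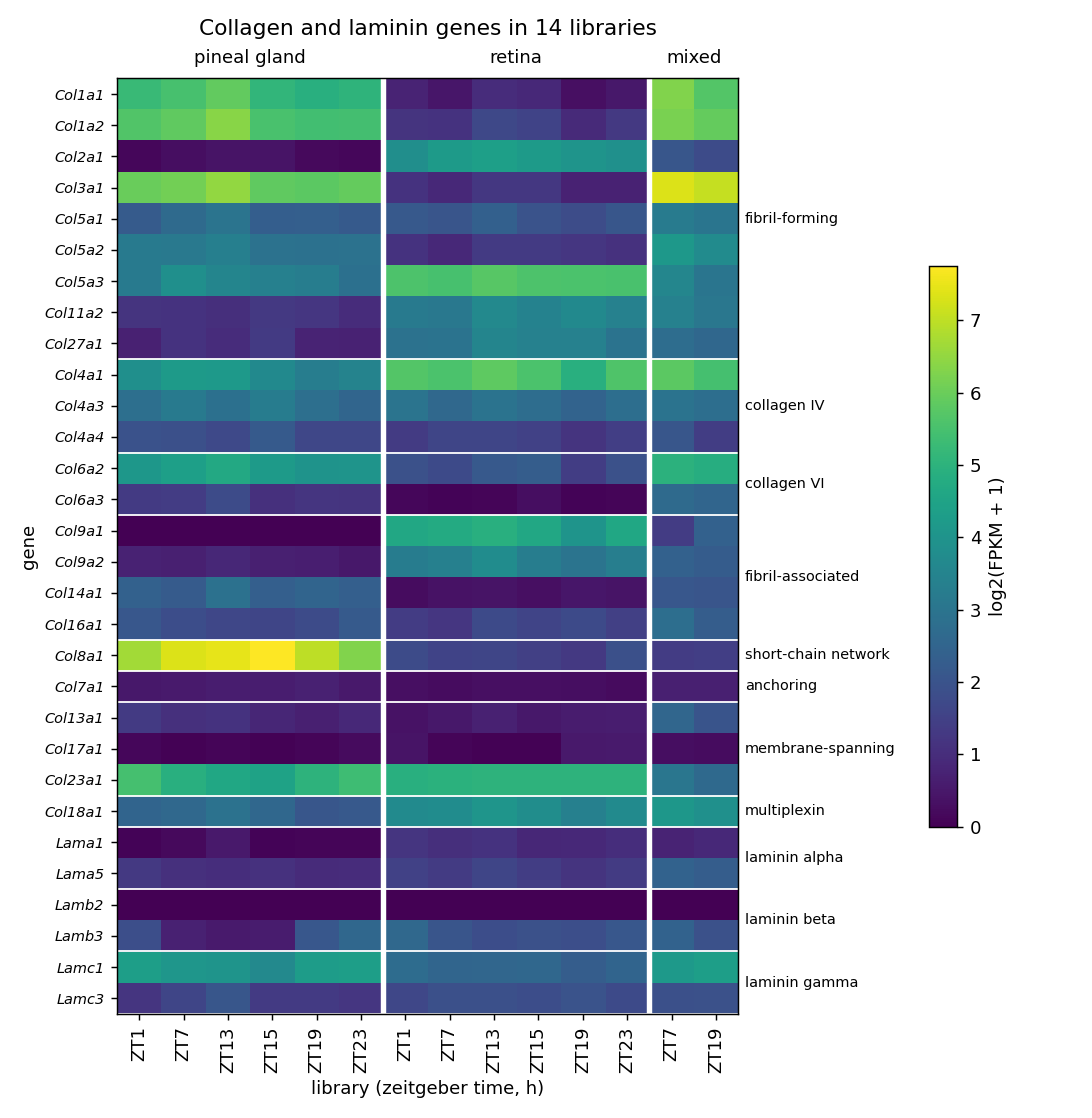
Level of 30 of the 31 chains (rows, grouped by class) in each of the 14 libraries (columns, by tissue and zeitgeber time), as log2(FPKM + 1) in colour. Col8a1, Col1a1, Col1a2 and Col3a1 are bright in all 6 pineal libraries and dark in all 6 retinal ones, and Col9a1 and Col2a1 show the opposite.

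Pineal gland and retina differed in most chains, in both directions. Differences were tested with limma on log2(FPKM + 1), with the 6 libraries of each tissue as replicates and Benjamini-Hochberg adjustment over all 11656 genes tested at a threshold of 0.05. The p-values therefore measure the spread between pools taken at different times, not between animals of one time. Of the 28 chains tested, 13 were higher in the pineal gland (46.4%, against 36.9% of all genes) and 12 were lower (42.9%, against 32.0% of all genes). Counting chains whose pineal and retinal libraries did not overlap gave 10 higher and 10 lower (35.7% each, against 25.6% and 24.4% of all genes). The median difference was 0.06 for the chains and 0.03 for all genes (log2). Without the retinal ZT1 and ZT19 libraries the counts were 10 higher and 12 lower, and without pineal ZT13 they were 13 and 12. A pseudocount of 0.1 FPKM in place of 1 moved the differences of several low chains by over 1.5 times, among them to -7.80 for Col9a1, -5.81 for Col2a1, 3.53 for Col14a1, 3.01 for Col6a3, -2.37 for Lama1, 0.93 for Col13a1 and -0.54 for Lama5. Col7a1 and Col17a1, of anchoring fibrils and hemidesmosomes, were under 1 FPKM in every library, and Lamb2 was listed at 0 in all 14 libraries, so these 3 were not tested. Lamb2 is placed on an unanchored contig of chromosome 16 in rn4, and its 0 is given only as listed.

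**Figure D2:**
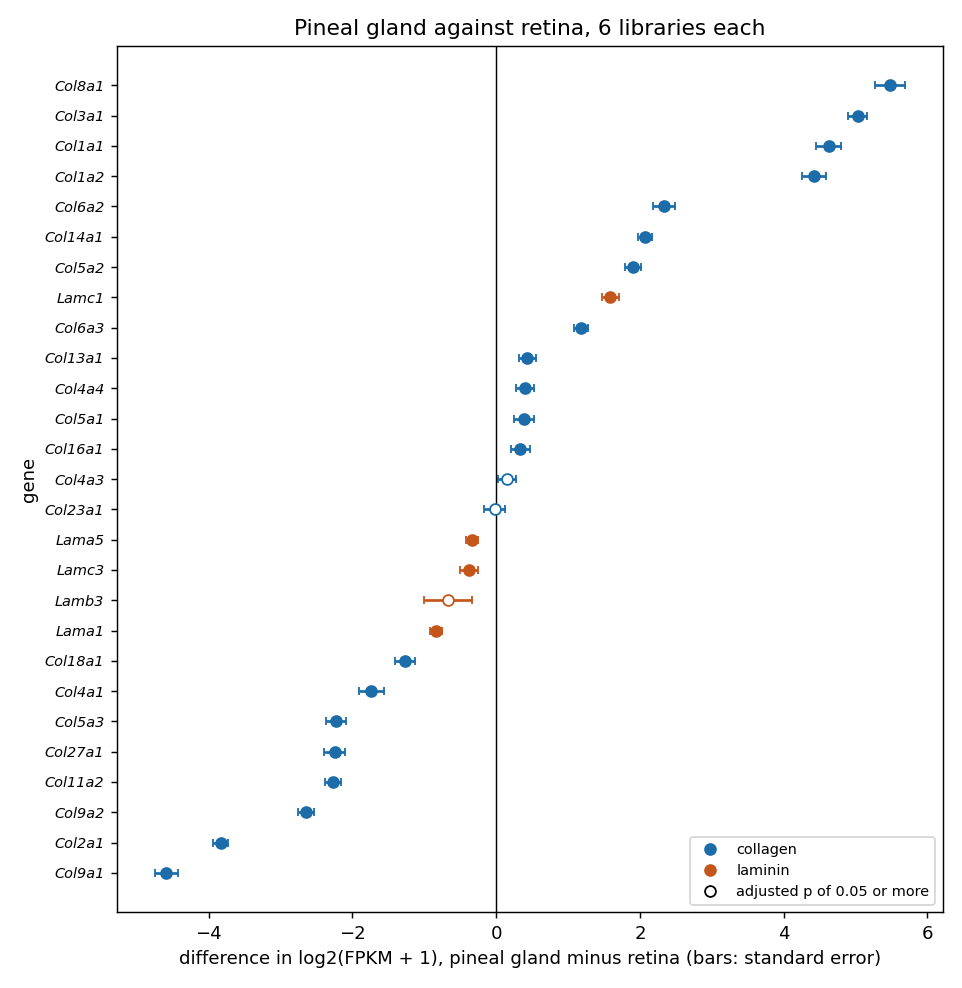
Difference between pineal gland and retina (horizontal axis, log2 of FPKM + 1, with standard error bars, 6 libraries per tissue) for 27 of the 28 chains tested, collagens in blue and laminins in orange. Filled points passed the adjusted p threshold of 0.05; Col8a1 lies highest at 5.48 and Col9a1 lowest at -4.59, and open points mark Col4a3, Col23a1 and Lamb3.

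Col8a1 showed the largest difference in favour of the pineal gland. Its level was 76.6 FPKM in the lowest, 145 in the median and 215 in the highest pineal library, against 1.44, 2.02 and 2.73 FPKM in the retina. Every pineal library was thus far above every retinal one, with a ratio of means of 69.0 and a log2 difference of 5.48 (SE 0.21, adjusted p = 2.82e-12). The gene lies at chr11:43604994-43733870 in rn4.

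The fibril collagens of connective tissue came next. Col3a1 had pineal values from 54.7 (median 61.3) to 89.8 FPKM and retinal values from 0.671 (median 1.03) to 1.41 FPKM, a log2 difference of 5.03 (SE 0.13, adjusted p = 4.68e-14). Col1a1 ranged from 28.9 (median 35.3) to 58.9 FPKM in the pineal gland and from 0.243 (median 0.558) to 0.992 FPKM in the retina (log2 difference 4.63, SE 0.17, adjusted p = 3.00e-12). Its partner in type I collagen, Col1a2, ranged from 41.8 (median 47.5) to 82.5 FPKM against 0.889 (median 1.36) to 2.24 FPKM (log2 difference 4.42, SE 0.17, adjusted p = 2.96e-12). None of these ranges overlapped, and the retinal values of all 3 chains lay near or below the pseudocount of 1 FPKM, which lowers the log2 difference. The ratio of Col1a2 to Col1a1 was 1.27 to 1.45 in the 6 pineal libraries, 0.947 at ZT7 and 1.18 at ZT19 in mixed tissue, and 1.79 to 3.65 in the retina, where both chains were low. Of the pineal libraries, ZT13 was the highest for all 3 chains; without it the differences were 4.93 for Col3a1, 4.51 for Col1a1 and 4.29 for Col1a2.

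Further chains that were higher in the pineal gland belong to the same kind of matrix. Col5a2, a type V chain that joins type I fibrils, had 6.40 to 9.09 FPKM in the pineal gland and 0.861 to 1.52 FPKM in the retina (log2 difference 1.90, SE 0.11, adjusted p = 3.78e-10). It lies 56281 bases from Col3a1 on chromosome 9 of rn4. Col14a1, a collagen on the surface of fibrils, had 3.65 to 6.44 against 0.202 to 0.395 FPKM (log2 difference 2.08). Col6a2 and Col6a3, chains of the beaded filaments of type VI collagen, differed by 2.33 and 1.18, with Col6a2 at 14.9 to 24.6 FPKM in the pineal gland and Col6a3 at 1.12 to 2.41 FPKM. Col6a2 thus exceeded its partner 10.2 to 15.8 times in the pineal libraries, against 5.62 and 5.70 times in mixed tissue and 16.8 to 51.7 times in the retina, where Col6a3 was low.

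Smaller pineal excesses were found for 4 other collagens. Col13a1, a collagen that spans the plasma membrane, differed by 0.44 (adjusted p = 0.00294), Col4a4 by 0.40 (0.0114), Col5a1 by 0.38 (0.0242) and Col16a1 by 0.33 (0.0336). The ranges of Col13a1, Col5a1 and Col16a1 overlapped between the tissues. Single libraries decided the last of these: for Col16a1 the adjusted p rose to 0.076 without pineal ZT1, 0.079 without pineal ZT23, 0.0694 without retina ZT1, 0.0797 without retina ZT7 and 0.0599 without retina ZT23. For Col5a1 it rose to 0.055 without pineal ZT7 and 0.0587 without retina ZT19, and for Col4a4 to 0.0723 without retina ZT1 and ZT19 together.

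Markers of the cells that usually make these collagens were higher in the pineal gland too. In the fibroblast and meninges list 11 of 12 genes tested were higher in the pineal gland and 0 were lower (36.9% and 32.0% of all genes, here and for the next lists). The summed level of the list was 98.8 to 148 FPKM in the pineal libraries, 6.88 to 13.4 FPKM in the retina and 111 and 116 FPKM in mixed tissue. Of the endothelial list, 8 of 10 genes tested were higher in the pineal gland and 1 was lower, with sums of 31.5 to 49.7 FPKM against 14.4 to 19.4 FPKM, and its defining genes Cldn5 and Slco1a4 were listed at 0 in every library. Of the pericyte and smooth muscle list 9 of 11 were higher and 0 were lower, with sums of 69.8 to 209 FPKM against 18.2 to 25.1 FPKM. Without Mcam, a gene of that list that cycled in the pineal gland (described further on), the sums were 38.7 to 60.1 against 15.2 to 21.9 FPKM. The part of these cells in the collagen differences was not tested.

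The chains that were lower in the pineal gland were led by the fibrils of cartilage and vitreous. Col9a1, a collagen on the surface of type II fibrils, was listed at 0 in 4 pineal libraries and at 0.0153 and 0.0136 FPKM at ZT19 and ZT23. In the retina it had 24.0, 26.0, 28.8, 24.2, 15.1 and 23.7 FPKM from ZT1 to ZT23, so the tissues were fully apart (log2 difference -4.59, SE 0.16, adjusted p = 1.38e-12). The low retinal value was that of ZT19, and without this library the difference was -4.71. Its partner Col9a2 was not at 0 in the pineal gland, with 0.401 to 0.809 FPKM against 6.89 to 12.6 FPKM in the retina (log2 difference -2.65, SE 0.11, adjusted p = 1.04e-11). Col9a1 exceeded Col9a2 by 2.18 to 2.80 times in the retina, and the ratio was 0 to 0.0339 in the pineal gland.

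Col2a1, the chain of type II collagen fibrils, had 13.3 (median 16.3) to 19.7 FPKM in the retina and 0.10 (median 0.178) to 0.329 FPKM in the pineal gland. This was a ratio of means of 80.5 in favour of the retina and a log2 difference of -3.83 (SE 0.10, adjusted p = 7.71e-14). Col11a2, of the core of such fibrils, had 7.68 to 11.8 against 0.982 to 1.45 FPKM (log2 difference -2.27, SE 0.11, adjusted p = 5.55e-11). Col27a1, another cartilage fibril collagen, had 6.53 to 10.4 against 0.637 to 1.51 FPKM (log2 difference -2.25, SE 0.14, adjusted p = 1.39e-09). None of these ranges overlapped.

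Within type V collagen the 3 chains measured differed in opposite directions. Col5a3 had 44.5 (median 46.4) to 52.5 FPKM in the retina and 6.27 (median 9.12) to 13.6 FPKM in the pineal gland (log2 difference -2.23, SE 0.14, adjusted p = 1.23e-09). Col5a2 was higher in the pineal gland, as was Col5a1 by a smaller margin. In the retina Col5a3 stood far above Col5a1 (2.45 to 4.18 FPKM) and Col5a2, while in the pineal gland the 3 chains lay within 3.57 and 13.6 FPKM.

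The retinal libraries also held transcripts known from tissues that border the retina. All 9 lens genes tested and 7 of 8 genes tested of the pigment epithelium and choroid list were lower in the pineal gland, and 1 of the latter was higher. The lens list summed to 127 to 1519 FPKM in the retina, against 2.12 to 8.95 FPKM in the pineal gland. The pigment epithelium gene Rpe65 lay at 5.13 to 11.9 FPKM in the retinal libraries. For the Muller glia and astrocyte list 5 of 7 genes tested were lower in the pineal gland. The part of these tissues in the retinal collagens was not tested. In the lens-rich retina ZT19 library Col9a1 and Col9a2 had their lowest retinal values (15.1 and 6.89 FPKM) and Col11a2 its highest (11.8 FPKM).

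Basement membrane chains divided between the tissues. Col4a1, a chain of the collagen IV network found in nearly all basement membranes, had 8.84 (median 12.6) to 17.6 FPKM in the pineal gland and 28.5 (median 46.9) to 55.5 FPKM in the retina (log2 difference -1.73, SE 0.18, adjusted p = 4.34e-07). Col18a1, the heparan sulfate collagen whose end fragment is endostatin, had 3.20 to 6.56 against 9.48 to 15.5 FPKM (log2 difference -1.26, SE 0.14, adjusted p = 9.75e-07). Neither gene's ranges overlapped.

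Col4a3 and Col4a4, which share the 88 promoter bases printed above, differed little between the tissues in Col4a3 and more in Col4a4. Col4a3 ranged from 4.82 to 8.49 FPKM in the pineal gland and from 4.51 to 6.95 FPKM in the retina, and the difference of 0.15 did not pass (SE 0.12, adjusted p = 0.298). Col4a4 ranged from 2.16 to 3.55 against 1.25 to 2.08 FPKM, a difference of 0.40 that passed, with no overlap. Col4a3 exceeded Col4a4 in all 12 libraries, by 2.10 to 2.94 times in the pineal gland and by 2.51 to 4.43 times in the retina.

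Of the laminins, the gamma chain Lamc1 was the most abundant in both tissues, and it was the only laminin that was higher in the pineal gland. It had 11.5 (median 17.2) to 19.5 FPKM there and 3.91 (median 4.83) to 5.63 FPKM in the retina (log2 difference 1.59, SE 0.12, adjusted p = 9.48e-09). Lamc3 had 1.3 to 3.18 against 2.17 to 2.92 FPKM (log2 difference -0.38, adjusted p = 0.0177), with overlapping ranges. The alpha chains Lama1 (0.0581 to 0.455 against 0.821 to 1.28 FPKM) and Lama5 (0.952 to 1.43 against 1.25 to 2.07 FPKM) were lower by 0.83 and 0.33 on the log2 scale (adjusted p = 3.33e-07 and 0.00211). Under quantile normalization the differences of Lama5 and Lamc3 no longer passed (adjusted p = 0.175 and 0.144). The only beta chain above 0, Lamb3, did not pass (log2 difference -0.67, SE 0.33, adjusted p = 0.084); it passed without pineal ZT19 (0.0415) or pineal ZT23 (0.0111), the libraries in which it was highest. In the retina the ranges of Lamb3 (2.59 to 5.21 FPKM) and Lamc1 overlapped, while both alpha chains lay below Lamc1 in both tissues without overlap.

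Against mixed tissue, the pineal gland was low in most chains and high in Col8a1 and Col23a1. The same fit found 3 of 28 chains higher in the pineal gland than in mixed tissue (10.7%, against 19.8% of all genes) and 19 lower (67.9%, against 45.0%). Col8a1 had 1.59 and 1.69 FPKM in mixed tissue, a ratio of means of 87.2 in favour of the pineal gland (log2 difference 5.69, SE 0.29, adjusted p = 8.31e-11). Col23a1 had 7.18 and 5.22 FPKM in mixed tissue and differed by 2.13 (SE 0.21, adjusted p = 2.58e-07). Col14a1 differed by 0.38 (adjusted p = 0.0245), a call that was lost without either mixed library (0.0995 without ZT7 and 0.132 without ZT19). Large deficits were those of Col11a2 (-2.10), Col9a1 (-1.89), Col4a1 (-1.86) and Col27a1 (-1.74). Col3a1 was lower by 1.19 on the log2 scale and Col1a1 by 0.69, while Col1a2 did not pass (-0.34, adjusted p = 0.222). Without the mixed ZT7 library Col1a1 differed by -0.40 and no longer passed (adjusted p = 0.313), and Col16a1, Col5a1 and Col6a2 were lost as well (adjusted p = 0.146, 0.0916 and 0.103). The count of lower chains lay between 14 and 20 when single libraries were left out.

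The retina exceeded mixed tissue in Col23a1 and in 5 of the 6 chains grouped above as cartilage and vitreous type. Of that group Col11a2 did not pass (0.17, adjusted p = 0.353). The group was set with earlier results of these data known, so its count is not independent of them. The type V chains left out of it, Col5a1 (-1.04) and Col5a2, were lower in the retina than in mixed tissue. Of 28 chains, 6 were higher in the retina (21.4%, against 18.4% of all genes): Col9a1 by 2.70, Col5a3 by 2.31, Col2a1 by 2.17, Col23a1 by 2.15, Col9a2 by 1.01 and Col27a1 by 0.50. The difference of Col27a1 (adjusted p = 0.0371) was lost without retina ZT13 (0.0645), ZT15 (0.0644) or ZT19 (0.0632) and without mixed ZT7 (0.0819) or ZT19 (0.21). The retina was lower in 13 chains (46.4%, against 46.6% of all genes), led by Col3a1 (-6.21), Col1a1 (-5.32), Col1a2 (-4.76), Col6a2 (-3.00) and Col5a2 (-2.78). Since retinal RNA was itself part of the mixed pools, these values hold some of the retinal level. The median of all genes was -0.25 for pineal gland minus mixed tissue and -0.30 for retina minus mixed tissue, and quantile normalization moved these medians to 0.22 and 0.19, so many differences from mixed tissue depend on the scale. Among the larger ones, the pineal difference of Col16a1 went from -0.68 to 0.067 and that of Lama1 from -0.64 to 0.26. The reversed difference of Lama1 passed (limma adjusted p = 0.0334). Under that scaling 8 chains were higher than in mixed tissue in the pineal gland, and 12 in retina. All 10 endothelial genes tested were higher in mixed tissue than in either tissue, with sums of 195 and 141 FPKM, and their part in the differences was not tested.

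Col23a1 was abundant in both pineal gland and retina. This collagen spans the plasma membrane and can be shed from it. It had 29.0, 30.3, 31.6, 31.2, 31.2 and 31.1 FPKM in the retina from ZT1 to ZT23 and 42.9, 29.0, 23.4, 21.0, 31.4 and 40.0 FPKM in the pineal gland. The pineal libraries lay on both sides of the narrow retinal range, and the mean levels did not differ by the test (log2 difference -0.02, SE 0.15, adjusted p = 0.925). The gene lies at chr10:36808661-37096560 in rn4.

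Daily rhythms were tested with a 24-h cosine curve per tissue, fitted to the 12 pineal and retinal libraries with limma. With 1 library per tissue and time the error is what the curves leave over. In the pineal gland 5 of 28 chains passed (17.9%, against 20.7% of all 10416 genes tested), and in the retina 1 of 28 (3.57%, against 1.02%). The difference of the rhythms between the tissues passed for 4 chains (14.3%, against 4.95% of all genes). The pineal share of rhythmic chains was thus close to that of all genes. Sizes are given as the peak to trough distance of the fitted curve on the log2 scale.

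Lamb3, a laminin beta chain known from epithelial basement membranes, had the largest daily swing of the chains that passed. Its pineal levels were 2.63 FPKM at ZT1, 0.629 at ZT7, 0.468 at ZT13, 0.494 at ZT15, 3.35 at ZT19 and 5.04 FPKM at ZT23. The libraries from ZT19 through ZT1 were high and those from ZT7 through ZT15 low, with a ratio of 10.8 between the highest and the lowest. In the retina Lamb3 had 5.21 FPKM at ZT1 and 2.59 to 3.33 FPKM at the other times. The fitted pineal peak lay at ZT22.5 with a peak to trough distance of 2.22 (adjusted p = 0.00105), and it passed under every alternative tried (adjusted p up to 0.0170). The rhythm differed from that of the retina (adjusted p = 0.0342), and this call was lost without pineal ZT13 (0.0586) or ZT23 (0.102) and without retina ZT7 (0.0687), ZT13 (0.11), ZT15 (0.0703), ZT19 (0.0847) or ZT23 (0.116). Lamb3, at chr13:109148815-109190320 in rn4, is the gene whose promoter sequence holds TGACGTCA. The part of this motif in the rhythm was not tested.

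Col8a1 ran in the opposite phase. Its pineal levels rose from 101 FPKM at ZT1 through 164 at ZT7 and 175 at ZT13 to 215 at ZT15, and were 127 at ZT19 and 76.6 FPKM at ZT23. The highest value thus came 1 h into darkness and the lowest 1 h before lights on, with a ratio of 2.81. The fitted peak lay at ZT11.8 with a distance of 1.24 (adjusted p = 0.00792), and of the alternatives only leaving out pineal ZT23 ended the call (0.0529). In the retina, where Col8a1 had 1.44 to 2.73 FPKM, no rhythm passed (adjusted p = 0.572). The difference between the tissues had an adjusted p of 0.0383, which was lost without pineal ZT15 (0.0607) or ZT23 (0.107) and without retina ZT1 (0.123), ZT7 (0.0594), ZT13 (0.0752), ZT15 (0.0911) or ZT23 (0.126). Pineal ZT15, the highest library for Col8a1, was also the library rich in Ttr; without it the pineal rhythm had a distance of 1.11 (adjusted p = 0.0167).

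Col23a1 cycled in the pineal gland with its trough where Col8a1 had its peak. The 42.9 FPKM at ZT1 and 40.0 FPKM at ZT23 were the highest and the 21.0 FPKM at ZT15 the lowest, a ratio of 2.05. The fitted peak lay at ZT0.82 with a distance of 0.93 (adjusted p = 0.000605), and this passed under every alternative tried (adjusted p up to 0.0213). The retinal libraries spanned a ratio of only 1.09. The difference between the tissues passed (adjusted p = 0.00834) and was lost only without retina ZT1 and ZT19 together (0.11).

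**Figure D3:**
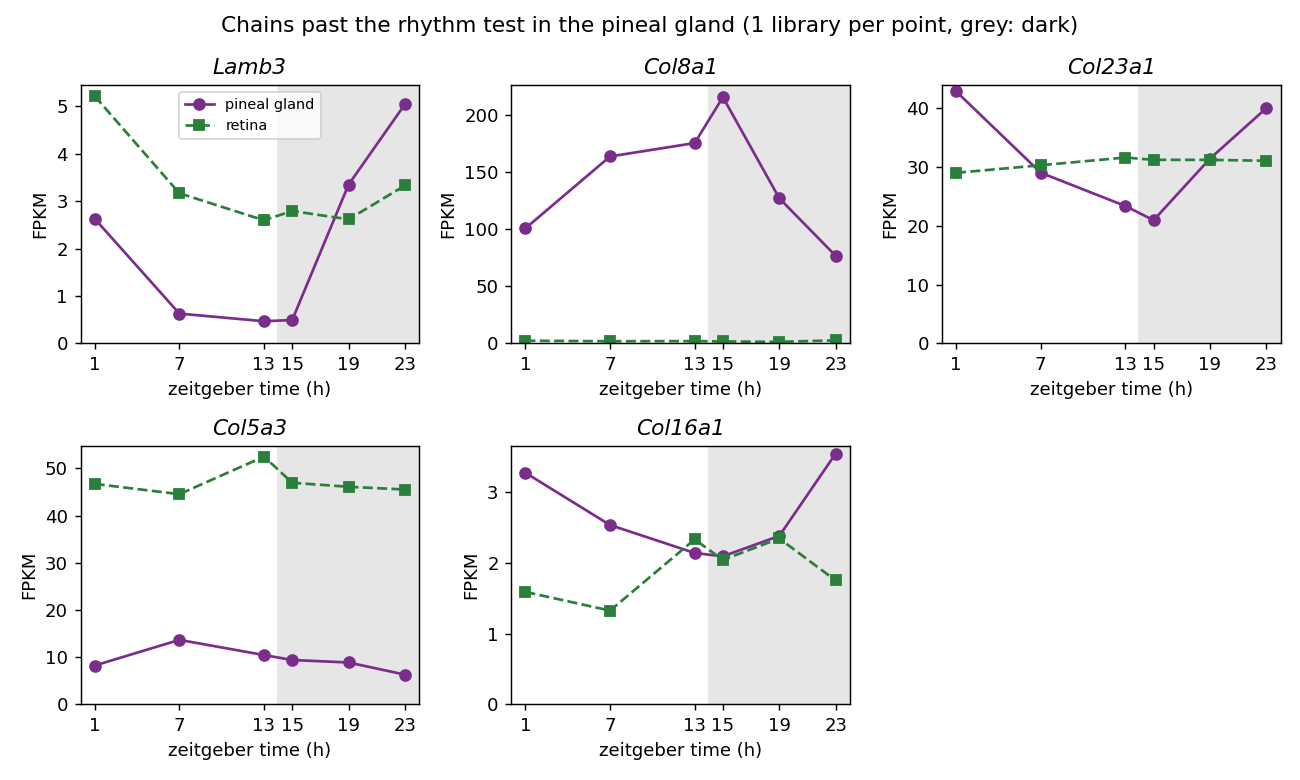
FPKM (vertical axis, linear from 0) against zeitgeber time (horizontal axis, h; grey marks darkness) for the 5 chains whose pineal rhythm passed, with 1 library per point, pineal gland in purple and retina in green. Lamb3 and Col23a1 are highest around ZT23 and ZT1 in the pineal gland while Col8a1 is highest at ZT15, and the retinal line of Col23a1 is flat at 29.0 to 31.6 FPKM.

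The remaining pineal rhythms were smaller. Col5a3 had 8.21, 13.6, 10.4, 9.38, 8.85 and 6.27 FPKM from ZT1 to ZT23, with a fitted peak at ZT9.13 and a distance of 0.82 (adjusted p = 0.0193). Leaving out pineal ZT7, its highest library, gave a distance of 0.49 and an adjusted p of 0.0688, and leaving out ZT23 gave 0.079. Col16a1, a minor collagen on fibrils, had 3.28, 2.54, 2.14, 2.09, 2.38 and 3.55 FPKM, with a peak at ZT1.09 and a distance of 0.53 (adjusted p = 0.0422). In the retina Col16a1 was instead highest at ZT13 and ZT19 (2.33 and 2.35 FPKM). Its pineal rhythm was lost without each of pineal ZT1 (0.0931), ZT13 (0.0867), ZT15 (0.0831) and ZT23 (0.163) and without each single retinal library (0.0511 to 0.0696), and the difference between the tissues (adjusted p = 0.0485) was lost without each of the same pineal libraries or any retinal library (0.07 to 0.138).

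Col3a1, Col1a1 and Col1a2, the fibril collagens most abundant in the pineal gland, and Col6a2 did not pass the rhythm test in either tissue. In the pineal gland these 4 chains were highest at ZT13 and lowest at ZT19, at 54.7, 28.9, 41.8 and 14.9 FPKM. Pineal ZT19 was the lowest pineal library for 10 of the 28 chains (35.7%) and for 39.6% of all genes. Closest to the threshold were Col4a1 (distance 1.01, adjusted p = 0.063), Lamc3 (0.69, adjusted p = 0.0753), Lamc1 (0.56, adjusted p = 0.0783) and Col18a1 (0.71, adjusted p = 0.0791), with peaks fitted at ZT8.11, ZT10.4, ZT0.47 and ZT9.58. Single libraries decided 3 of these: Col4a1 passed without retina ZT7 (0.0225) or retina ZT19 (0.0156), Lamc3 without pineal ZT15 (0.0164), and Col18a1 without pineal ZT1 (0.0447) or pineal ZT7 (0.0214).

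Late darkness (ZT19 and ZT23) was also compared with the light (ZT1, ZT7 and ZT13). In the pineal gland Lamb3 was the 1 chain that was higher in late darkness (3.57% of the chains, against 3.04% of all genes), with 4.19 ± 1.2 FPKM (n = 2) against 1.24 ± 1.2 FPKM (n = 3), a log2 difference of 1.32 (SE 0.35, adjusted p = 0.0482 by limma). Both late dark libraries lay above all 3 light ones, and the call was lost without any of pineal ZT7 (0.159), ZT13 (0.124), ZT19 (0.125) or ZT23 (0.165) and likewise without the retinal library of ZT7 (0.0699), of ZT13 (0.0695), of ZT19 (0.0753) or of ZT23 (0.0754). No chain was lower by limma at the adjusted threshold (0, against 4.23% of all genes), although 9 chains had an unadjusted p under 0.05 and 8 of these were lower in late darkness (26.0% of all genes had such a p). Col4a1 (-0.70, adjusted p = 0.0557) and Col18a1 (-0.56, adjusted p = 0.0591) were the nearest. Leaving out pineal ZT1 made 6 chains lower (Col18a1, Col1a1, Col4a1, Col5a1, Col5a3 and Lamc3) and 10.2% of all genes. The median over the chains was -0.23, and over all genes -0.12. In the retina 0 chains passed in either direction (0.0096% and 0.0% of all genes), with 2 at an unadjusted p under 0.05 (11.9% of all genes), and the median was -0.20 for the chains and -0.11 for all genes. For the difference between the tissues 0 chains passed (0.566% and 0.144% of all genes), with 2 at an unadjusted p under 0.05 (11.1% of all genes). The mixed tissue had 1 library per time, so its values have no replicate check: Lamb3 had 4.42 FPKM in the ZT7 library and 2.77 FPKM in that of ZT19, Col8a1 at 1.59 and 1.69 FPKM, and Col23a1 at 7.18 and 5.22 FPKM.

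Many chains had their highest or lowest value in the same few libraries. Pineal ZT13 was the highest pineal library for 14 of the 28 chains (50.0%, against 23.5% of all genes). In that library decorin (Dcn), which binds type I fibrils, had 32.7 FPKM against 20.4 to 22.4 FPKM in the others, lumican (Lum) 15.5 against 9.76 to 11.2 FPKM, and the meningeal enzyme Aldh1a2 8.56 against 3.34 to 6.27 FPKM. Col1a2 (82.5 against 41.8 to 56.8 FPKM) and Col14a1 (6.44 against 3.65 to 4.61 FPKM) stood above the rest there. In the retina ZT13 was the highest library for 14 chains (50.0%, against 11.1% of all genes) and ZT19 the lowest for 14 (50.0%, against 29.7%). Retina ZT7 was the highest library for 51.2% of all genes and for 0 chains. That leaves small shares of all genes for the other retinal libraries, ZT13 among them. Retina ZT19 had 28.5 FPKM of Col4a1 against 45.8 to 55.5 FPKM in the other libraries, together with 10.2 FPKM of the matrix gene Fbln1 against 18.7 to 22.1 FPKM. The part of sample composition in these library effects was not tested.

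**Figure D4:**
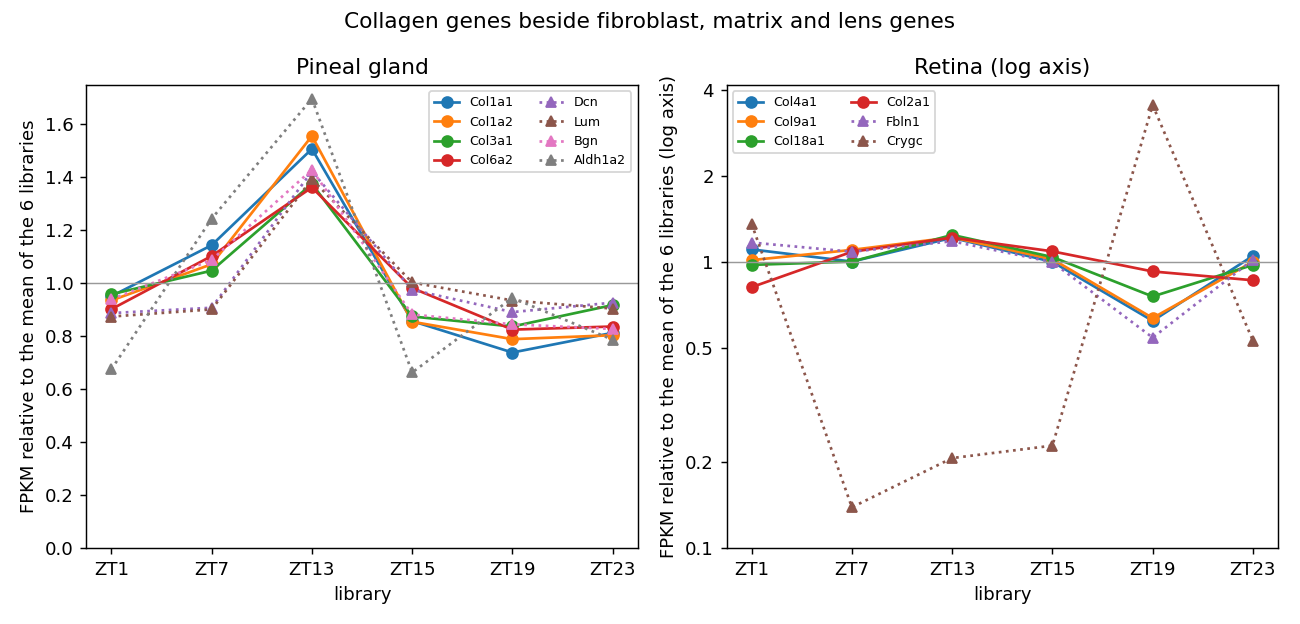
Level of collagen chains (circles, solid lines) and of fibroblast, matrix and lens genes (triangles, dotted lines) in each pineal (left, linear axis) and retinal library (right, log axis), relative to the mean of the 6 libraries of the tissue. Col1a1, Col1a2, Col3a1 and Col6a2 and the genes Dcn, Lum, Bgn and Aldh1a2 (left) are all highest in pineal ZT13. On the right, where other chains are drawn, Col4a1, Col9a1, Col18a1 and Fbln1 are lowest in retina ZT19, where the lens gene Crygc is highest.

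Genes that fold, process, bind and degrade collagens were read from lists set beside the chains. For pineal gland against retina, the list of collagen folding and hydroxylation had 5 of 13 genes tested higher and 3 lower. These counts and those of the next lists stand against 36.9% of all genes higher and 32.0% lower, and those for folding, basement membrane partners and receptors were near these shares. The collagen 3-prolyl hydroxylase Leprel2 (1.60), the chaperone Serpinh1 (1.13) and the foldase Fkbp10 (1.02) were the largest of these, and Plod1 was higher by 0.92. Serpinh1, also called Hsp47, had 33.3 to 41.0 FPKM in the pineal gland and 12.7 to 19.1 FPKM in the retina.

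Of the genes for processing and crosslinking, 5 of 10 tested were higher in the pineal gland and 2 lower. The propeptidase Adamts2 (1.81), the enhancer Pcolce (1.37), the metalloproteinase Bmp1 (1.05) and the crosslinking oxidase Lox (1.05) were higher. The small leucine-rich proteoglycans, which coat fibrils, had 6 of 7 tested higher and 1 lower, led by Dcn (3.30), Bgn (3.24), Lum (2.63) and Prelp (1.59). Of the matrix turnover genes 9 of 11 were higher and 1 lower, led by Mmp15 (2.66), Mmp2 (1.98), the collagen uptake receptor Mrc2 (1.80) and cathepsin K (Ctsk, 1.64). Basement membrane partners had 3 of 9 higher, among them fibronectin (Fn1, 2.44), and 3 lower. Receptors for collagen and laminin had 4 of 10 higher and 2 lower, with the integrin chain Itgb4 at 1.63 and the 2 collagen receptor kinases in opposite directions, Ddr2 at 1.03 and Ddr1 at -1.22. The list medians were 0.15 for folding, 0.52 for processing, 1.59 for the proteoglycans, 1.02 for turnover, 0.35 for basement membrane partners and 0.13 for receptors, against 0.03 over all genes.

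The rhythm test was also read for these partner genes in the pineal gland. The counts that passed were 2 of 13 for folding, 0 of 10 for processing, 1 of 8 for basement membrane partners, 1 of 7 for the proteoglycans, 1 of 8 for receptors and 3 of 11 for turnover, against 20.7% of all genes, and none of the 6 lists had a gene that passed in the retina. The 3 genes named next were chosen after their values were seen. Tinagl1, a matrix protein that binds laminin and collagen IV, had 2.64, 1.33, 2.49, 2.49, 18.9 and 10.8 FPKM in the pineal gland from ZT1 to ZT23, a night peak like that of Lamb3 (peak at ZT20.2, distance 3.01, adjusted p = 0.0124). Among the marker lists, the vascular and melanoma adhesion molecule Mcam, which binds laminin, had 148, 32.8, 23.3, 23.5, 87.4 and 171 FPKM (peak at ZT23.4, distance 3.16, adjusted p = 1.3e-05). Plod2, a collagen lysyl hydroxylase, had 3.75, 5.66, 6.50, 5.25, 2.87 and 2.79 FPKM, a day peak at ZT9.90 (distance 1.07, adjusted p = 0.00302).

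Col4a3bp, the ceramide transporter that matched by symbol, had 13.4 to 17.5 FPKM in the pineal gland, 13.2 to 14.6 FPKM in the retina and 15.8 and 15.2 FPKM in mixed tissue. It did not pass in any tissue comparison (0.11 for pineal gland minus retina, adjusted p = 0.157) and is counted with none of the chains above.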

How the data were processed

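RNA of 14 libraries (6 pineal, 6 retinal and 2 of mixed tissue) was sequenced after polyadenylated RNA selection and random priming, per the labels' protocols. The deposited values were FPKM per RefSeq transcript, with TopHat 1.3.1, Cufflinks 1.2.0 and the rn4 build named in the submitters' processing notes. Whether reads keep their strand is not given in the sources used here, and overlapping genes on opposite strands may share reads. Read totals were not given. FPKM values with the same gene ID were summed here over 16932 transcripts, and 1 was added to table starts, which count from 0.

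Genes that reached 1 FPKM in 2 or more of the fitted libraries were tested as log2(FPKM + 1), a pseudocount that lowers folds of weak genes, with limma 3.58.1 (empirical Bayes, trend) in R 4.3.3. Tests were two-sided with Benjamini-Hochberg adjustment over all genes tested and a threshold of 0.05. The tissue fit used all 14 libraries, the rhythm fit a cosine and sine per tissue, and the phase fit gave ZT15 its own mean. The code was tested on simulated data. Alternatives were a pseudocount of 0.1 FPKM, no filter, quantile normalization, median ratio scaling, time as a block, tissues fitted alone, ZT15 counted as dark, and libraries left out.

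Members named are the 8 highest per tissue, the 12 largest differences in each direction between pineal gland and retina, the 5 largest in each direction against mixed tissue, every chain past a time test, partner chains, and up to 4 genes per pathway list; 1 chain that enters the counts is otherwise not reported here. The members and the lists were chosen with earlier results of these data known. Sequences are from RefSeq on GRCr8, in which 24 of 31 chains had a promoter entry.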

Additional observations from a re-analysis of the deposited data

Results flagged for a closer look

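Of 47 sets of 6 library values checked (chains at a mean of 1 FPKM or more in a tissue), 6 had 1 library far from the others, a gap over 0.625 of the whole range. Chance gives about 1 in 20 such sets. In the pineal gland these were Col1a2 at ZT13 (82.5 FPKM, the other libraries 41.8 to 56.8) and Col14a1 at ZT13 (6.44 FPKM, the others 3.65 to 4.61). In the retina Col4a1 at ZT19 was low (28.5 FPKM, the others 45.8 to 55.5), as was Col9a1 at ZT19 (15.1 FPKM, the others 23.7 to 28.8). Col5a3 at ZT13 (52.5 FPKM, the others 44.5 to 47.0) and Lamb3 at ZT1 (5.21 FPKM, the others 2.59 to 3.33) were high.

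For 4 chains the daily rhythm differed between pineal gland and retina by the interaction test in limma: Col23a1 (adjusted p = 0.00834), Lamb3 (0.0342), Col8a1 (0.0383) and Col16a1 (0.0485). Each was lost under at least 1 alternative, and the highest adjusted p over the alternatives was 0.11 for Col23a1, 0.131 for Lamb3, 0.135 for Col8a1 and 0.24 for Col16a1.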

How the results depend on the processing

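Between pineal gland and retina, 20 of the 25 chains that passed did so under every alternative. Against mixed tissue this held for 16 of 22 chains (pineal gland) and 16 of 19 (retina). These counts ignore direction. Among the 16 for the pineal gland, Lama1 passed with the opposite sign under quantile normalization (0.26, limma adjusted p = 0.0334). For the pineal rhythm 2 of 5 chains passed under every alternative (Lamb3 and Col23a1). This held for 0 of the chains of the retinal rhythm (1), the rhythm difference (4) and the late dark contrast (1). Quantile normalization gave 8 chains higher in the pineal gland and 12 higher in the retina than in mixed tissue, and turned the sign of Col16a1 (0.067), Lama1 (0.26) and Lamc3 (0.60) for pineal gland minus mixed tissue and of Col4a3 (0.38), Col4a4 (0.64) and Lamc3 (0.79) for retina minus mixed tissue. It moved the median over all genes of late dark minus light in the retina from -0.11 to -0.0041.

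The retinal rhythm count of 1 was 0 with a pseudocount of 0.1 FPKM, 2 without the filter, 0 without retina ZT1 and ZT19 and 3 with the retina fitted alone. The rhythm difference count of 4 was 2, 1 and 0 under the first 3 of these, and the pineal rhythm count of 5 was 3 with the tissue fitted alone. The 1 chain higher in late darkness in the pineal gland became 0 under each of these settings, under quantile normalization and with ZT15 counted as dark. Leaving out 1 library at a time gave 2 to 6 chains for the pineal rhythm (2 without pineal ZT23), 0 to 1 for the retinal rhythm, 1 to 5 for the rhythm difference, 0 to 1 higher and 0 to 6 lower for late darkness in the pineal gland (6 without pineal ZT1), and 0 to 1 higher for the late dark difference. In these fits the remaining libraries share 1 estimate of the spread, and the causes of the changes were not tested.

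By the labels, pineal and retinal libraries of one time share that time, and whether their pools came from the same animals is not given. Over 10416 genes their deviations from the tissue means correlated between 0.05 and 0.27, over 0.1 in 5 of 6 pairs, and 4 of 6 pineal libraries correlated best with the retinal library of their own time. With time of day as a block, 12 chains were higher and 12 lower in the pineal gland than in the retina, 2 and 19 against mixed tissue, and 6 and 14 for the retina against mixed tissue. Under the block Col16a1 (pineal minus retina, adjusted p = 0.0735), Col14a1 (0.0531) and Lamc3 (0.0553, both pineal minus mixed) no longer passed, while Col1a2 (pineal minus mixed, 0.0184) and Col18a1 (retina minus mixed, 0.0136) did. Chains listed near 0, such as Col9a1 in the pineal gland, rest on few fragments, so small differences at that level were not detectable at this depth. For all chains under 1 FPKM the pseudocount also lowers the differences.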
